A study of Mus musculus with 18 samples.

Results

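The RNA of heavy polysomes was compared with the RNA of unfractionated lysate (input) in control 4T1 cells. 4T1 cells come from a mammary tumour of a BALB/c mouse and are used to model breast cancer that lacks hormone receptors and HER2. The libraries were chosen by their titles: 3 of NSi heavy polysomes and 3 of NSi input, or 6 of the 18 in the study. NSi is the control arm, whose cells carried a non-silencing hairpin, and shDap5 is the arm with a hairpin against Dap5, the protein product of Eif4g2. All 6 groups of the study (heavy polysomes, light polysomes and input of each arm, 3 libraries each) had been treated with 2 µg/ml doxycycline for 6 days, so the control cells had the drug too. The labels describe 1 line per arm and name no uninduced cells. Whether the 3 libraries of a group are separate cultures is not said there, so the spread behind each p-value may be technical.

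Ribosomes that read the same mRNA together form a polysome, and a sucrose gradient sorts mRNAs by how many ribosomes they carry. RNA that stays in the nucleus or in ribosome-free particles is in the lysate but not in the heavy pool. A longer reading frame can hold more ribosomes, while upstream reading frames, pyrimidine tracts at the 5′ end and the base composition of the message are known to change how readily ribosomes load.

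Polyadenylated RNA was selected and counted per gene. Total counts were 30385863 to 45424291 in the heavy and 51529054 to 55554881 in the input libraries, and 17267 to 18650 genes had a count in heavy and 20971 to 21513 in input libraries. Values are given as CPM, a count scaled to library size, after TMM scaling, which sets the bulk of genes equal between libraries. Input libraries correlated with each other at 0.995 to 0.996 and heavy libraries at 0.978 to 0.985 (Pearson's r of log2 CPM). Heavy library 3 stood somewhat apart: it correlated with the inputs at 0.953 to 0.954 and with the light libraries at 0.961 to 0.965, while heavy libraries 1 and 2 correlated with the inputs at 0.962 to 0.965. The epithelial carcinoma markers summed to 4182 to 5639 CPM in heavy and 1896 to 2188 CPM in input libraries, and all 6 were present. Markers of other cell types were low. The endothelial list summed to 1.76 to 2.18 CPM in heavy and 2.6 to 3.44 CPM in input, the macrophage list to 65.4 to 86.5 CPM in heavy and 42.8 to 48.7 CPM in input, the fibroblast list to 16.1 to 23.7 CPM in heavy and 29.9 to 39.99 CPM in input, and the adipocyte list to 3.26 to 6.28 CPM in heavy and 2.42 to 2.93 CPM in input. The lymphocyte list reached 0.125 CPM at most and the red cell list 0.0467. Lum, Cd3d, Lep, Hba-a1 and Hbb-bt were at 0 in all 6 libraries. The part of these lists in the results was not tested.

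The mRNA content of heavy polysomes differed widely from that of the lysate. Glycolytic enzymes, proteasome subunits, mitochondrial ribosomal and respiratory chain proteins, keratins, tubulins and tRNA synthetases took a larger share of heavy polysome RNA, and noncoding RNAs, zinc finger genes, splicing regulators and mRNAs of very long proteins a smaller one. In the quasi-likelihood test of edgeR 7029 of 15072 genes tested (46.6%) had an adjusted p under 0.05, which is meant below by called, rose or fell. Of all genes tested 3980 (26.4%) rose in heavy and 3049 (20.2%) fell. At least 2-fold were 1824 of the rises (12.1% of genes tested) and 1790 of the falls (11.9%). The 3 heavy and 3 input libraries did not overlap for 9232 genes (61.3%), 4852 (32.2%) with heavy higher and 4380 (29.1%) with heavy lower. The median log2 change of all genes tested was 0.03. Changes are relative, as each library is a share of its own total. A change compares a transcript's share of heavy polysome RNA with its share of lysate RNA. Fewer cells with the transcript on heavy polysomes and less of it there per cell cannot be told apart. With scaling by library total alone 1981 genes rose and 5619 fell, so that rises were 26.1% of the calls against 56.6% with TMM, and with upper quartile scaling they were 39.97%. The median over all genes was then -0.41 and -0.20, and list medians are best read against it. Without heavy library 3 the test called 3470 rises and 2620 falls.

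**Figure D1:**
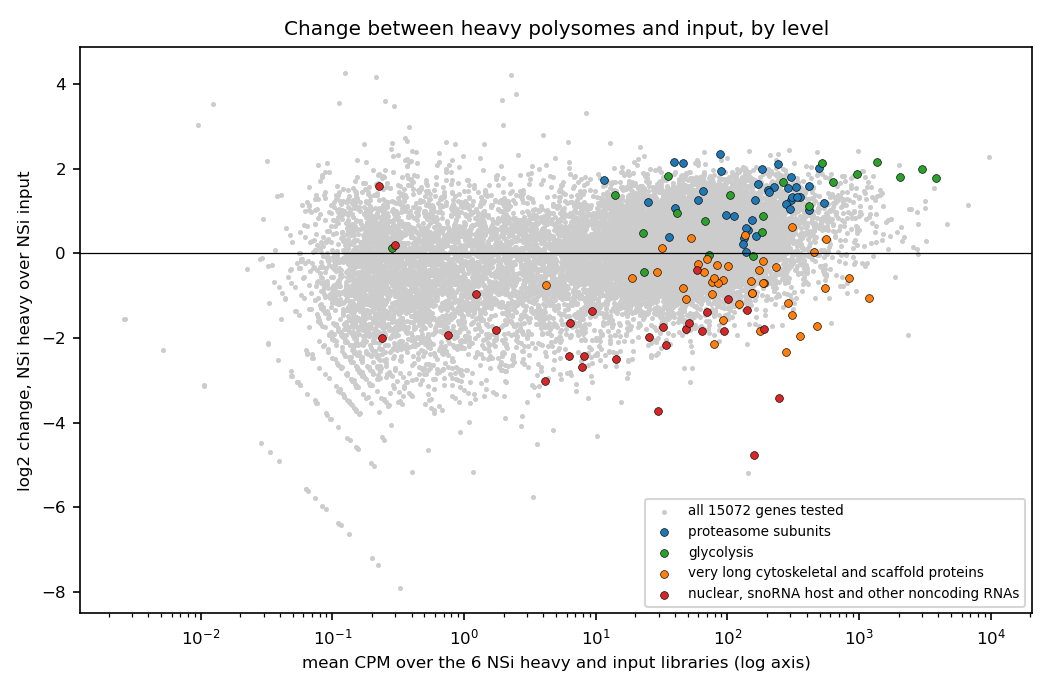
Log2 change of NSi heavy over NSi input (vertical axis) against the mean CPM of the 6 libraries (log axis) for each of the 15072 genes tested. Proteasome (blue) and glycolysis (green) genes lie mostly above 0, mRNAs of very long proteins (orange) and noncoding RNAs (red) mostly below.

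Among called genes whose groups did not overlap and whose mean reached 5 CPM, the largest rises were led by Asb2, a subunit of a ubiquitin ligase. Asb2 had 20.9, 2.31 and 22.6 CPM in heavy and 1.83, 1.7 and 1.12 CPM in input libraries; the heavy libraries were higher but heavy library 2 only just so (log2 3.30, SE 0.84, adjusted p = 0.0036 by edgeR). Gm30368, a noncoding RNA, Chil1, a chitinase-like secreted protein, and Sfn, the 14-3-3 sigma protein, followed at 2.63, 2.60 and 2.51. Galk1, the galactokinase of galactose breakdown, was tighter. Galk1 had 473, 513 and 492 CPM in heavy and 92.5, 88.2 and 90.9 CPM in input libraries (log2 2.44, SE 0.18, adjusted p = 6.46e-08 by edgeR). The lowest heavy library stood far above the highest input library. Lcn2, the secreted siderophore binder lipocalin 2, spread widely on heavy polysomes. Lcn2 had 1269.7, 661 and 3010.2 CPM in heavy and 325, 308 and 288 CPM in input libraries (log2 2.42, SE 0.57, adjusted p = 0.00205 by edgeR). No heavy library came down to the inputs, as the rule for this list required of every gene in it. The list went on with Fbxo2, a ubiquitin ligase subunit for glycoproteins (2.42), Eif6, which keeps the large ribosomal subunit from joining the small one (2.40), Akr7a5, an aldehyde reductase (2.39), and Gcat, an enzyme of threonine breakdown (2.35). Psmb8, a subunit of the immunoproteasome, was at 2.34, Mvb12a of the ESCRT-I sorting complex at 2.32, Tmem160 at 2.31, Lgals1, galectin-1, at 2.27 and Etfb, which passes electrons from fatty acid oxidation, at 2.26, with 68% of the 31-base windows of the Etfb mRNA also found in a transcript of another gene. Lgals1 was the most counted gene of every heavy library, at 12674, 14789.7 and 20461 CPM against 3165, 3345 and 3395 CPM in input.

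Of the 15 largest falls 7 had the RefSeq class of long noncoding RNA and 1 had no match in RefSeq. 3110039I08Rik, a long noncoding RNA, had 6.39, 7.83 and 8.63 CPM in heavy and 311, 270.3 and 249 CPM in input libraries (log2 -5.18, SE 0.27, adjusted p = 4.22e-09 by edgeR). Malat1, a nuclear speckle RNA, had 17.8, 8.53 and 7.39 CPM in heavy and 323, 307 and 289.8 CPM in input libraries (log2 -4.77, SE 0.35, adjusted p = 6.45e-08 by edgeR). In both, every heavy library held a small fraction of any input. Mean heavy levels were 2.75% of input for 3110039I08Rik and 3.66% for Malat1. Firre, a chromatin-bound RNA of the X chromosome, was at -3.73, Neat1, the scaffold of paraspeckles, at -3.43, Gt(ROSA)26Sor at -3.27 and Mir22hg, the host of a microRNA, at -3.05. Protein coding genes were among the falls too. Prpf39, a factor of the U1 splicing particle, had 12.4, 11.6 and 9.73 CPM in heavy and 90.5, 96.5 and 90.2 CPM in input libraries (log2 -3.04, SE 0.18, adjusted p = 1.17e-08 by edgeR). Its groups lay far apart. Spaca6, a sperm protein needed for fertilization, was at -3.51, Slc25a27, a mitochondrial carrier, at -2.90, and Atp6v0c, the proton channel subunit of the vacuolar ATPase, at -3.42. Kpna2, an importin that carries cargo into the nucleus, was at -4.33 and Rhbdl1, a rhomboid protease, at -3.10, but their counts are uncertain: 94.2% and 79.9% of their windows are shared with another gene, and how such reads were counted is not given in the sources used here. Gm38446, LOC106557447 and Gm39469 completed the falls at -2.98, -2.96 and -2.87.

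**Figure D2:**
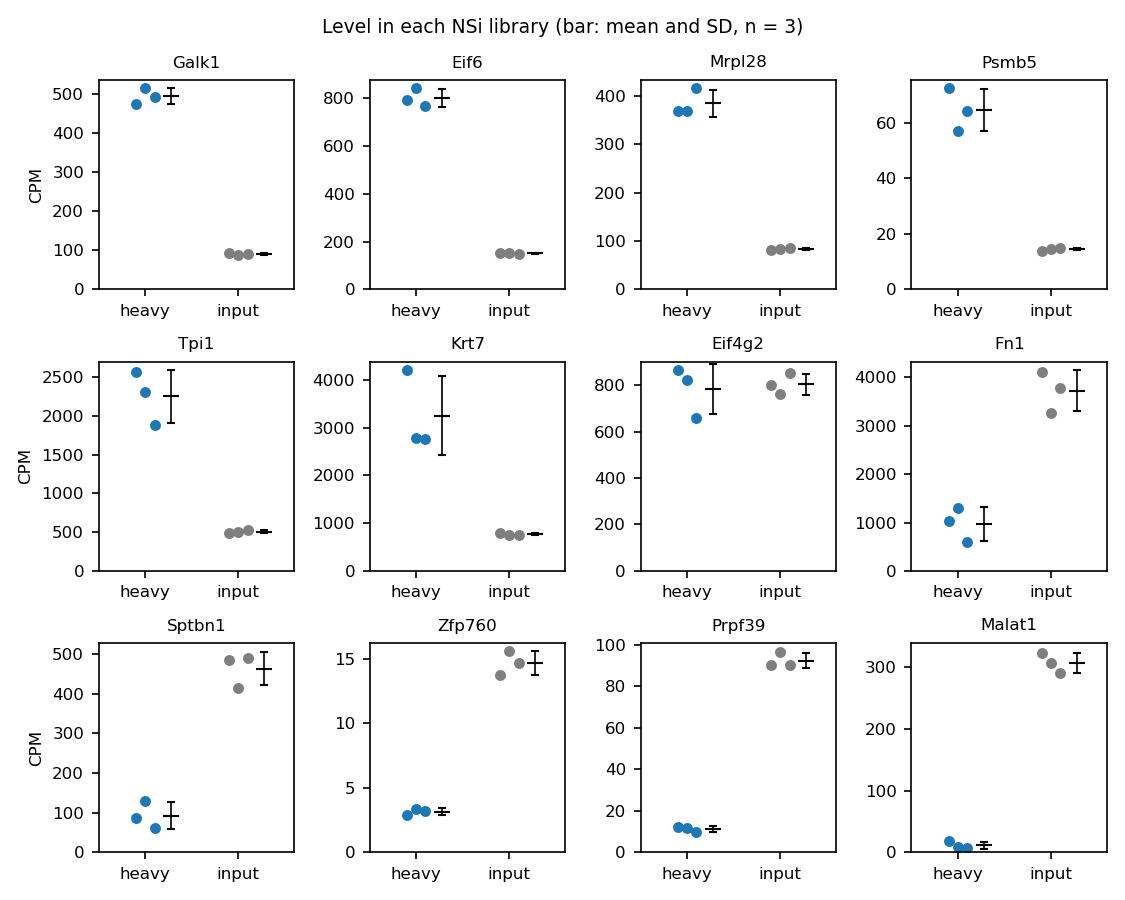
CPM of 12 genes in the 3 NSi heavy (left, blue) and 3 NSi input (right, grey) libraries, each panel on its own axis from 0, with mean and SD. Heavy and input overlap for Eif4g2; in the other panels they do not, with Galk1 to Krt7 higher and Fn1 to Malat1 lower in heavy.

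Eif4g2 encodes DAP5, an initiation factor related to eIF4G that lacks the part that binds the cap-binding protein. Eif4g2 had 864, 822 and 659.8 CPM in heavy and 798.7, 759 and 852 CPM in input libraries. The groups overlapped, with means of 782 ± 108 CPM in heavy and 803 ± 46.3 CPM in input (SD, n = 3 each), and the change was not called (log2 -0.04, SE 0.25, adjusted p = 0.917 by edgeR). In the arm with the hairpin against it, Eif4g2 had 358, 277 and 222 CPM in heavy and 592, 340.4 and 671 CPM in input libraries, where it was lower in heavy (log2 -0.90, adjusted p = 0.00752 by edgeR). The difference between the arms, NSi minus shDap5, was 0.87 with an SE of 0.36 and was not called (adjusted p = 1.0 by edgeR).

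Ribosomal protein mRNAs carry a stretch of pyrimidines at the very 5′ end, the TOP motif, through which mTOR signalling sets their translation. A run of at least 6 C or T on the transcript strand that overlaps the 5 bases on either side of the annotated start was found for 30 of 58 tested ribosomal protein genes with a promoter in the RefSeq table for GRCm38.p6 (51.7%), for 6 of 14 elongation factor and other TOP genes (42.9%), and for 23.98% of all 27025 genes with a promoter there. A gene was counted if any of its promoters had such a run. Of all 32851 promoters taken singly 21.02% had one. Windows of 30 bases, from 10 bases before the annotated start, are shown with the run in capitals, so that members with long, short and no runs can be set beside their changes. Fau and Rpl28 rose in heavy and Rpl10 and Rpl10a fell, and these 4 are among the 5 of the family with the smallest p; Rpl15, Rpl18, Rps3 and Eef2, an elongation factor gene, were chosen after their values were seen; all 4 rose.
Fau: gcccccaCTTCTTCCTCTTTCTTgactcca
Rpl28: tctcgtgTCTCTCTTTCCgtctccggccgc
Rpl10: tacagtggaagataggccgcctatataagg
Rpl10a: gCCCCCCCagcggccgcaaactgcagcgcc
Rpl15: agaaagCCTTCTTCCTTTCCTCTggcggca
Rpl18: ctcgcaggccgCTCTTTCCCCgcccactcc
Rps3: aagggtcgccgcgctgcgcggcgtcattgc
Eef2: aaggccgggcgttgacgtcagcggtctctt

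On GRCm38.p6 these windows are Fau chr19:6057937-6057966 (plus strand), Rpl28 chr7:4792955-4792984 (plus strand), Rpl10 chrX:74270806-74270835 (plus strand), Rpl10a chr17:28328461-28328490 (plus strand), Rpl15 chr14:18270967-18270996 (minus strand), Rpl18 chr7:45718061-45718090 (plus strand), Rps3 chr7:99483690-99483719 (minus strand) and Eef2 chr10:81176621-81176650 (plus strand), each across the annotated start of the gene and so partly upstream and partly in its first exon. Fau, Rpl28, Rpl15 and Rpl18 hold runs of 16, 11, 17 and 10 pyrimidines. Rpl10a has a run of 7 that lies wholly before the annotated start, and so outside the annotated mRNA. Rpl10, Rps3 and Eef2 have no run close enough to that start to be counted, though the Eef2 window ends in pyrimidines (tctctt). Of these, Rpl10 fell and Rps3 and Eef2 rose. Whether the annotated starts are the 5′ ends of the mRNAs in these cells was not tested, so a missing run does not show that the mRNA lacks one. Of protein coding genes with a promoter in the table, such a run was present in 25.01% of those that rose and 24.1% of those that fell, beside 24.8% of all tested.

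The 79 cytosolic ribosomal protein genes did not move as a block: 19 rose (24.1%, beside 26.4% of all genes) and 24 fell (30.4%, beside 20.2%). Their median was 0.14, as for protein coding genes. Fau, the gene of a ubiquitin-like protein fused to ribosomal protein S30, had 30.2, 30.4 and 34.8 CPM in heavy and 11.4, 14 and 11.8 CPM in input libraries (log2 1.36, adjusted p = 6.54e-06 by edgeR). Rpl28 had 24.5, 29.7 and 27 CPM in heavy and 9.43, 12.8 and 8.37 CPM in input libraries (log2 1.41, adjusted p = 1.41e-05). In both, all heavy libraries were above all inputs. Rpl10 had 2.94, 3.15 and 3.45 CPM in heavy and 17.1, 23.1 and 14.7 CPM in input libraries (log2 -2.52, adjusted p = 1.24e-06 by edgeR), and -2.71 and -1.99 were the changes of Rpl10a and Rps12. In these 3 the heavy libraries were all below the inputs. Genes of this family have many processed copies in the genome, and the calls divided by how much of the mRNA another gene also holds. Of 31 genes with under 50% of windows shared 10 rose and 4 fell (median 0.55). Of 20 genes with 50% to under 75% shared 8 rose and 3 fell (median 0.54). Of 28 genes with 75% or more shared 1 rose and 17 fell (median -1.003). Rpl10, Rpl10a and Rps12 share 85.7%, 88.4% and 84.1%, against 52.7% for Fau and 35.7% for Rpl28. Level moved with it: of 31 genes with a mean of 100 CPM or more 14 rose and 0 fell (median 0.71), and of 48 genes below that 5 rose and 24 fell (median -0.82). The part of read sharing in these changes was not tested. Both splits were made after the values were seen, as was the choice of 2 genes with few shared windows. Rpl8 (9.99% shared) had 2089, 1614 and 2174 CPM in heavy and 751, 739.8 and 799.5 CPM in input libraries (log2 1.36, adjusted p = 0.000154 by edgeR). All heavy libraries were above all inputs. Rps3 (8.73%) was at 1.08, and the call for Rps3 was lost with scaling by library total alone (adjusted p = 0.0539). Rpl15 and Rpl18, whose runs are shown, were at 0.55 (adjusted p = 0.0117) and 0.95 (adjusted p = 0.00252 by edgeR), calls that were lost with that scaling too (adjusted p = 0.596 and 0.0585), as was that of Rpl15 with upper quartile scaling (adjusted p = 0.117). Without heavy library 3 the list had 15 rises and 21 falls and a median of -0.01.

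**Figure D3:**
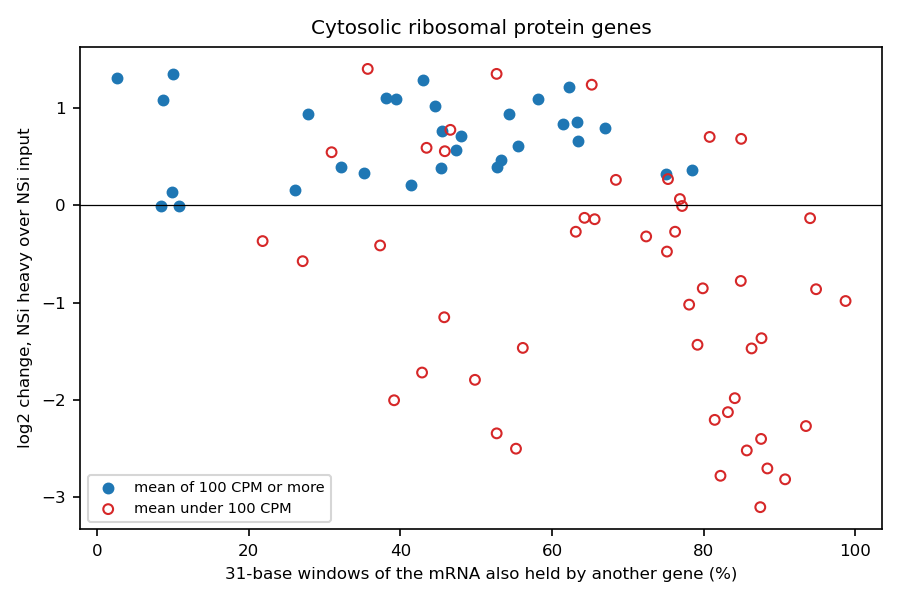
Log2 change of NSi heavy over NSi input of the 79 cytosolic ribosomal protein genes (vertical axis) against the percentage of 31-base windows of their mRNA that another gene also holds. Genes with a mean of 100 CPM or more (filled) lie near or above 0, and most with 75% or more shared windows lie below 0.

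Of 20 elongation factor and other TOP mRNAs 9 rose (45%, beside 26.4% of all genes) and 3 fell (15%, beside 20.2%). The median was 0.54. With library totals alone 4 rose and 3 fell (median 0.09, beside -0.41 for all genes). Eef1d, the guanine exchange subunit of elongation factor 1, had 819, 533 and 556 CPM in heavy and 150.1, 153 and 156 CPM in input libraries (log2 2.05, SE 0.21, adjusted p = 1.01e-06 by edgeR). All heavy libraries were several-fold above the inputs. Eif3k, a subunit of initiation factor 3, was at 1.75 and Btf3, part of the complex that meets nascent chains, at 1.09. Hnrnpa1, a splicing protein with a TOP mRNA, was at -1.68, with 49.3% of windows shared, and Gas5, a noncoding snoRNA host with a TOP start, at -1.79. Eef2, the translocase of elongation, and Eef1a1, which brings tRNA to the ribosome, were chosen after their values were seen. Eef2 had 10236, 8655 and 8626 CPM in heavy and 4167, 4008 and 4314 CPM in input libraries (log2 1.14, adjusted p = 0.00053 by edgeR). Eef1a1 had 4569, 2807 and 3257 CPM in heavy and 2749.9, 2936 and 2988 CPM in input libraries, which overlapped (log2 0.29, adjusted p = 0.379 by edgeR; 74.8% shared).

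Other parts of the translation machinery were mostly higher on heavy polysomes. With library totals alone 13 of 39 initiation factors rose and 8 fell (median 0.25). With TMM 20 rose (51.3%, beside 26.4% of all genes) and 3 fell (7.69%, beside 20.2%), with a median of 0.70. The rises took in all 5 tested subunits of eIF2B, which reloads eIF2 with GTP (median 1.43), and 6 of 8 of eIF3, which holds the small subunit (median 1.31). Eif2b2 had 189, 187 and 206 CPM in heavy and 60.7, 58.9 and 61.9 CPM in input libraries (log2 1.68, SE 0.13, adjusted p = 9.4e-08 by edgeR). Eif3g had 534, 415 and 425 CPM in heavy and 137, 129 and 137 CPM in input libraries (log2 1.77, SE 0.14, adjusted p = 1.01e-07 by edgeR). Both genes had a gap between heavy and input much wider than the spread in either. Eif3i and Eif2b4 were at 1.77 and 1.43. In the eIF4 group, which binds cap, poly(A)-bound factors and RNA helicase, 6 of 13 rose and 1 fell (median 0.29). Eif4e, the cap-binding protein, had 96.6, 82 and 79.8 CPM in heavy and 70.6, 66.1 and 75.3 CPM in input (log2 0.29, adjusted p = 0.307 by edgeR), and the scaffolds Eif4g1 and Eif4g3 were at 0.17 (adjusted p = 0.57) and -0.05 (adjusted p = 0.824). These 3, chosen after their values were seen, did not pass, though with scaling by library total alone Eif4g3 passed as lower (-0.51, adjusted p = 0.0113).

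The aminoacyl-tRNA synthetases, which charge tRNAs with amino acids, moved one way: 13 of 20 rose, 0 fell and all 20 changes were above 0 (median 0.92). Kars, the enzyme for lysine, had 1150.1, 959 and 876 CPM in heavy and 382, 369 and 403 CPM in input libraries (log2 1.37, SE 0.15, adjusted p = 1.62e-06 by edgeR). Vars, the enzyme for valine, had 1839, 2062 and 1576 CPM in heavy and 623, 621 and 595 CPM in input libraries (log2 1.57, SE 0.20, adjusted p = 5.92e-06 by edgeR). The heavy libraries of both were above the inputs by a factor larger than their own spread. Wars, Yars and Farsa, for tryptophan, tyrosine and phenylalanine, were at 1.29, 1.20 and 1.24. Without heavy library 3, 19 rose and the median was 1.14.

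Noncoding RNAs were depleted from heavy polysomes. Of 1491 genes that RefSeq classes as long noncoding RNA 34 rose and 527 fell (median -0.87), beside 3895 rises and 2316 falls among 12939 protein coding genes (median 0.14). All 7 tested nuclear noncoding RNAs fell (median -1.81) and their heavy and input libraries did not overlap. Pvt1, transcribed next to Myc, had 19.5, 17.4 and 27.5 CPM in heavy and 73.4, 74.4 and 75.9 CPM in input libraries (log2 -1.80, SE 0.26, adjusted p = 2.5e-05 by edgeR), and Airn, an imprinted antisense RNA, was at -1.64. Of 21 hosts of small nucleolar RNAs and other cytoplasmic noncoding RNAs 17 fell and 0 rose (median -1.83). Snhg6 had 12.4, 10.4 and 14.4 CPM in heavy and 56.1, 57.8 and 54.1 CPM in input libraries (log2 -2.18, SE 0.30, adjusted p = 1.54e-05 by edgeR). Every heavy library was several-fold below every input. Dancr was at -3.02, Snhg4 at -2.69, Snhg7 at -2.44 and Snhg20 at -2.43. Spliced Snhg RNAs carry short open frames and are known to be destroyed in the cytoplasm by a translation-dependent pathway.

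Of 33 splicing regulators whose genes are known for retained introns or poison exons 17 fell and 5 rose (median -0.50). The 2 polypyrimidine tract proteins went opposite ways. Ptbp2 had 13.5, 12.8 and 12.9 CPM in heavy and 45.3, 48.2 and 50.5 CPM in input libraries (log2 -1.88, SE 0.15, adjusted p = 8.45e-08 by edgeR). Ptbp1 had 913, 864 and 872 CPM in heavy and 374, 404 and 395 CPM in input libraries (log2 1.18, SE 0.18, adjusted p = 3.63e-05 by edgeR). Ptbp2, which Ptbp1 represses outside neurons by skipping an exon, was thus below input in each heavy library and Ptbp1 above it in each. Pnisr was at -2.20, the SR protein Srsf5 at -1.27 and Tia1, a stress granule protein, at -1.21. Clk1 and Clk4, kinases of SR proteins, and Rbm39 were chosen after their values were seen and were at -1.18, -1.14 and -1.09. Without heavy library 1 the counts were 20 falls and 3 rises. Of 25 core Sm and Lsm proteins of the same machinery 8 rose (32.0%, beside 26.4% of all genes) and 2 fell (median 0.45); with library totals alone 6 rose and 7 fell (median 0.01). Snrpa, which binds U1 RNA, had 159, 162 and 194 CPM in heavy and 63.6, 64.5 and 60.3 CPM in input libraries (log2 1.45, SE 0.13, adjusted p = 1.61e-07 by edgeR; 50.8% of windows shared). Snrpb was at 1.78 and Lsm4 at 1.48.

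A family seen only after the values were known was that of zinc finger genes named Zfp and a number, most of them DNA-binding repressors of transposable elements and genes. Of 298 tested 173 fell and 35 rose (median -0.75), and the list median was -0.72, -0.65 and -0.80 in heavy libraries 1, 2 and 3. Zfp760 had 2.88, 3.4 and 3.23 CPM in heavy and 13.7, 15.6 and 14.7 CPM in input libraries (log2 -2.21, SE 0.17, adjusted p = 6.46e-08 by edgeR). Zfp160 had 4.36, 3.11 and 3.82 CPM in heavy and 19.3, 21.4 and 19 CPM in input libraries (log2 -2.40, SE 0.20, adjusted p = 1.44e-07 by edgeR). The input libraries of each lay within a narrow range and all heavy libraries at about the same low level. Zfp944, Zfp942 and Zfp868 were at -2.26, -2.30 and -1.80. The 5 named share 0.372% to 22.1% of their windows with another gene.

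Subunits of the proteasome rose together. Of 39 proteasome genes 34 rose and 0 fell (median 1.33), with 16 of 17 in the proteolytic core (median 1.54) and 17 of 20 in the cap that unfolds substrates (median 1.18). Psmb6 had 398, 352 and 418 CPM in heavy and 87.9, 87.9 and 95.8 CPM in input libraries (log2 2.10, SE 0.16, adjusted p = 8.72e-08 by edgeR). Psmd3 had 629, 582 and 675 CPM in heavy and 211, 212 and 203 CPM in input libraries (log2 1.59, SE 0.13, adjusted p = 1.15e-07 by edgeR). Heavy libraries of both were tight and far from the inputs. Psmb5, Psmb4 and Psmb3 of the core were at 2.16, 2.02 and 1.94, with 74% and 66.8% of windows shared for Psmb5 and Psmb3.

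Nuclear-coded mitochondrial proteins showed the same direction. Of 76 mitochondrial ribosomal protein genes 61 rose and 1 fell (median 1.07), 39 of 47 in the large and 22 of 29 in the small subunit. Mrpl28 had 368, 368 and 415 CPM in heavy and 80.5, 83.2 and 86 CPM in input libraries (log2 2.21, SE 0.18, adjusted p = 9.4e-08 by edgeR). Mrpl4, Mrpl2, Mrps34 and Mrpl38 were at 1.77, 1.65, 1.74 and 1.63. Of 77 respiratory chain and ATP synthase genes 55 rose and 5 fell (median 1.06). By complex, 28 of 37 rose in complex I, 3 of 4 in complex II, 6 of 9 in complex III, 6 of 10 in complex IV and 11 of 15 in the ATP synthase. Atp5d, the delta subunit of ATP synthase, had 791, 758 and 1074 CPM in heavy and 191, 207 and 201 CPM in input libraries (log2 2.13, SE 0.19, adjusted p = 1.82e-07 by edgeR). Ndufs8, an iron-sulfur subunit of complex I, had 208, 189.8 and 239 CPM in heavy and 59.3, 64.9 and 65.4 CPM in input libraries (log2 1.75, SE 0.14, adjusted p = 9.55e-08 by edgeR). For both, input varied by little and no heavy library approached it. Ndufs7, Sdhb and Atp5o were at 1.84, 1.71 and 1.83, with 63.2% of windows shared for Atp5o. The 7 tested messages made inside mitochondria, which cytosolic ribosomes do not read, had 0 calls and a median of 0.36. ND4 had 2270.3, 803 and 1074 CPM in heavy and 439, 947 and 513 CPM in input libraries, and CYTB had 5037, 2251 and 2955 CPM in heavy and 1514, 3155 and 1726 CPM in input libraries. Heavy and input overlapped for all 7, and the median was 0.88, 0.27 and -0.14 in heavy libraries 1, 2 and 3.

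Glycolysis, which feeds fast-growing tumour cells, had 15 of 21 genes higher and 0 lower (median 1.36). Tpi1, triosephosphate isomerase, had 2557, 2312 and 1876 CPM in heavy and 485, 506 and 526 CPM in input libraries (log2 2.15, SE 0.28, adjusted p = 7.92e-06 by edgeR). Aldoa, an aldolase, had 5053, 5152 and 4169 CPM in heavy and 1158, 1261 and 1219.9 CPM in input libraries (log2 1.98, SE 0.20, adjusted p = 5.9e-07 by edgeR). The lowest heavy library was over the highest input library in each. Eno1, Gpi1 and Eno3 were at 2.13, 1.67 and 1.68, with 73% of windows shared for Eno1. In the cholesterol pathway 13 of 24 rose and 2 fell (median 0.80), among them Ebp, a sterol isomerase (1.78), Mvk, mevalonate kinase (1.61), and Fdft1, squalene synthase (1.45).

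Of 33 actins, tubulins and small cytoskeletal proteins 25 rose and 1 fell (median 0.97). Tubb5, a beta tubulin, had 4972, 5064 and 6475 CPM in heavy and 1845, 1881 and 1993 CPM in input libraries (log2 1.53, SE 0.20, adjusted p = 1.07e-05 by edgeR). Tagln2, the actin binder transgelin 2, had 1601, 1566 and 2009 CPM in heavy and 481, 495 and 509.8 CPM in input libraries (log2 1.80, SE 0.19, adjusted p = 1.37e-06 by edgeR). Heavy was above input in all libraries of both. Tubb4b and Tuba1b were at 1.67 and 2.04, with 70.4% and 85.9% of windows shared. Of 31 cytosolic chaperones 19 rose and 1 fell (median 0.74), including 6 of 7 tested subunits of the CCT chaperonin that folds actin and tubulin (median 0.88). Cct7 was at 1.44, and Hspb8, Bag3 and Dnajb1, of the stress-inducible set, at 1.44, 1.15 and 1.31. Proteins of the endoplasmic reticulum were mixed, with 15 of 35 higher and 3 lower (median 0.17); with library totals alone 5 were higher and 9 lower, and without heavy library 1 or input library 3, 1 was lower. Ssr2, Ddost and Sec61a1, which take part in import and glycosylation of new chains, were at 1.38, 1.15 and 0.79. Hspa5, the main luminal chaperone BiP, was chosen after its values were seen. It had 2476, 1672 and 991 CPM in heavy and 1668, 1496 and 1646 CPM in input libraries, which overlapped (log2 0.10, adjusted p = 0.807 by edgeR).

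**Figure D4:**
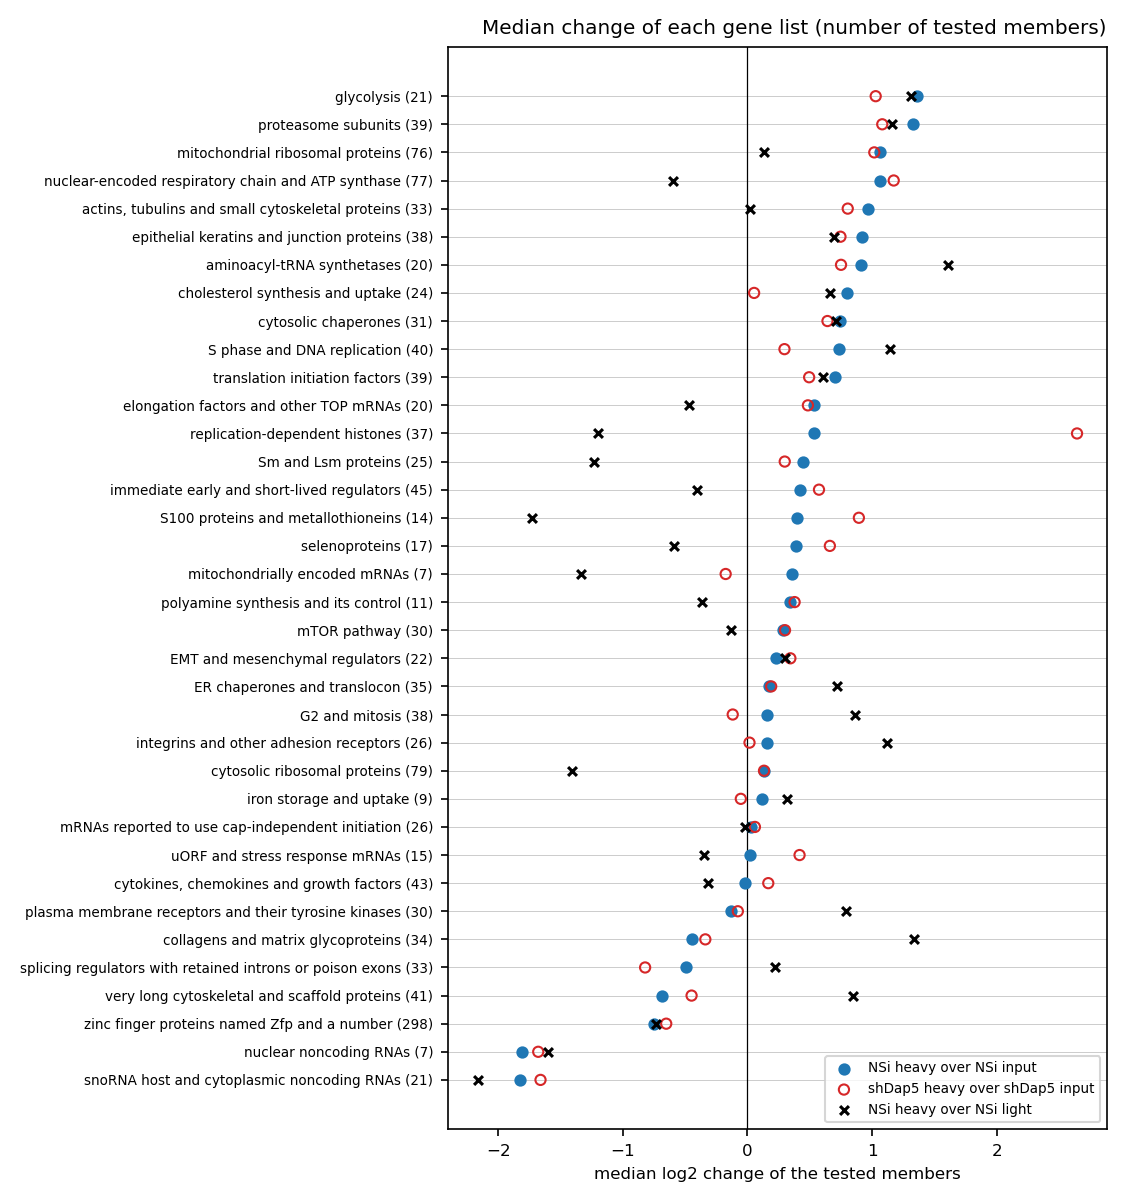
Median log2 change of the tested members of each gene list (number tested in brackets) for NSi heavy over input (filled), shDap5 heavy over input (open) and NSi heavy over light (crosses). Glycolysis and the proteasome lie highest for NSi heavy over input and the noncoding RNAs lowest, while ribosomal, S100 and Sm protein genes are near or above 0 against input and far below 0 against light.

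Long messages of structural proteins were under-represented. Of 41 very long cytoskeletal and scaffold proteins 18 fell and 0 rose (median -0.68). Sptbn1, a spectrin of the membrane skeleton, had 87, 129.6 and 61.6 CPM in heavy and 486, 415 and 489.6 CPM in input libraries (log2 -2.32, SE 0.40, adjusted p = 0.000139 by edgeR). Myh9, nonmuscle myosin IIA, had 258, 284 and 129 CPM in heavy and 755, 701 and 758 CPM in input libraries (log2 -1.72, SE 0.30, adjusted p = 0.000185 by edgeR). Every heavy library was below every input, and heavy library 3 was the lowest of each. Myh10 and Aspm, another myosin and a spindle pole protein, were at -1.84 and -1.58. The list median was -0.47, -0.48 and -1.13 in heavy libraries 1, 2 and 3; without heavy library 3 the counts were 11 falls and 2 rises, and without input library 1 or 3 they were 11 falls.

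Of 34 collagens and matrix glycoproteins 8 fell (23.5%, beside 20.2% of all genes) and 2 rose (5.88%, beside 26.4%). The median was -0.45, and with library totals alone 18 fell and 0 rose. Fn1, fibronectin, had 1022, 1307 and 603 CPM in heavy and 4122, 3272 and 3779.8 CPM in input libraries (log2 -1.93, SE 0.36, adjusted p = 0.000313 by edgeR). Heavy libraries stayed well below the inputs. Tnc, tenascin C, and Col7a1, the collagen of anchoring fibrils, were at -1.88 and -1.72. Sparc, a small matrix protein, went up (291, 371 and 331 CPM in heavy and 184, 181 and 185 CPM in input libraries, log2 0.85, SE 0.18, adjusted p = 0.0011 by edgeR), a call lost with scaling by library total alone (adjusted p = 0.0944). Adhesion receptors rose and fell about as often as all genes (26.4% and 20.2%), with 7 of 26 higher (26.9%) and 5 lower (19.2%; 3 and 8 with library totals alone; median 0.16; 3 lower without heavy library 1 or 3 or input library 1 or 3). Jup, plakoglobin of junctions, Pkp3, a desmosome protein, and Itgb5, an integrin, were at 1.39, 1.32 and 1.25, and the integrin Itga1 at -1.17. Receptors and their kinases had 7 of 30 higher (23.3%) and 8 lower (26.7%; 0 and 15 with library totals alone; median -0.14); the 8 were 4 or 5 without heavy library 1 or 3 or input library 1 or 3. Notch2 was at -0.91 and Pdgfra at -0.90.

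Across 12831 protein coding genes with a transcript in GENCODE M21 (99.2% of those tested), the change followed protein length in a curve. Genes for proteins under 100 residues had a median of 0.07, with 12.6% higher and 14.6% lower. The median was 0.36 at 100 to 200 residues and 0.44 at 200 to 400, where 43.4% rose and 10.9% fell. It was 0.09 at 400 to 800, -0.15 at 800 to 1600 and -0.52 at 1600 or more, where 5.03% rose and 37.3% fell. Lengths of the 3′ UTR gave medians of 0.47 at 100 to 250 bases and -0.35 at 4000 or more, and those of the 5′ UTR a narrower range, 0.29 at 50 to 100 bases and 0.02 at 400 or more. Spearman's rank correlation across genes, which are not independent replicates, was -0.26 with protein length, -0.25 with 3′ UTR length, -0.07 with 5′ UTR length and -0.36 with mRNA length.

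Base composition spread the class medians over a wider range than length did. Messages with under 40% GC had a median of -0.84, with 9 of 552 higher and 342 lower, and those with 60% or more a median of 0.73, with 365 of 684 higher and 31 lower. Classes between ran in order: -0.42 at 40% to 45%, -0.06 at 45% to 50%, 0.38 at 50% to 55% and 0.65 at 55% to 60%. The rank correlation with GC was 0.50 across genes, and 0.38, 0.43 and 0.57 in heavy libraries 1, 2 and 3 taken singly, so that library 3 gave the highest; library preparation and depth are shared by all genes of a library, and their part was not tested. Length classes differed within a GC class too: at 50% to 55% the median was 0.66 for 200 to 400 residues and -0.30 for 1600 or more, and at 55% to 60% it was 0.93 and -0.13. Likewise, among proteins of 400 to 800 residues, the median ran from -1.06 under 40% GC to 0.80 at 60% or more.

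**Figure D5:**
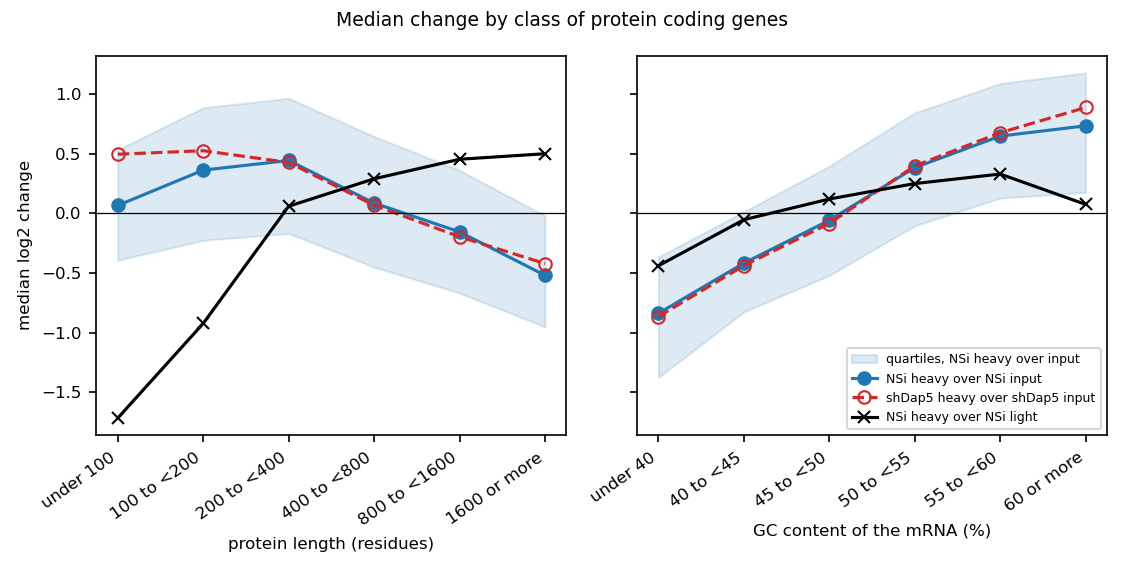
Median log2 change by class of protein length in residues (left) and of mRNA GC content in percent (right) for NSi heavy over input (filled, with quartiles shaded), shDap5 heavy over input (open) and NSi heavy over light (crosses). Against input the median is highest at 200 to 400 residues (0.44) and climbs with GC from -0.84 to 0.73, and against light it climbs with length throughout.

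Control mechanisms that act on ribosome loading are known for several small groups. Messages with upstream reading frames or a role in the integrated stress response had 5 of 15 higher and 2 lower (median 0.02). These are 33.3% and 13.3%, beside 26.4% and 20.2% of all genes. With library totals alone 0 were higher and 5 lower. The 5 rises with TMM became 2 or 3 without heavy library 1 or 2 or input library 1 or 2. Ibtk and Ifrd1 have upstream frames that hold back the main one. Ibtk had 51.4, 59.2 and 39.7 CPM in heavy and 81.2, 72.9 and 87 CPM in input libraries (log2 -0.68, adjusted p = 0.00454 by edgeR). Ifrd1 had 139, 129 and 137 CPM in heavy and 183, 192 and 194 CPM in input libraries (log2 -0.49, adjusted p = 0.00849 by edgeR). For both genes all heavy libraries were below all inputs. Cebpb, Asns and Slc35a4, of the same list, were higher at 1.21, 0.90 and 0.75 (adjusted p = 0.0123, 0.0182 and 0.0165 by edgeR). These calls were lost with library totals alone (adjusted p = 0.09, 0.24 and 0.271) and, among other settings, without heavy library 3 for Cebpb (0.152), heavy library 1 or input library 1 or 2 for Asns (0.0504 to 0.0764), and heavy library 3 or input library 2 for Slc35a4 (0.0969 and 0.0528). Atf4, the master factor of that response, was chosen after its values were seen. It had 304, 241 and 320.3 CPM in heavy, 689.9, 599 and 911 CPM in light and 321, 335 and 361 CPM in input libraries. Heavy was at -0.23 over input (adjusted p = 0.38 by edgeR; -0.68 and adjusted p = 0.00629 with scaling by library total alone) and at -1.35 over light (adjusted p = 5.57e-05).

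In polyamine metabolism 3 of 11 genes rose (27.3%) and 2 fell (18.2%), near the shares of all genes (26.4% and 20.2%). The median was 0.34, and with library totals alone 1 rose and 3 fell. Srm, spermidine synthase, had 377, 326 and 388 CPM in heavy and 95.7, 103 and 97.4 CPM in input libraries (log2 1.88, SE 0.26, adjusted p = 1.75e-05 by edgeR). Sat1, the acetylase that starts polyamine export and whose translation polyamines release, had 47.1, 58.2 and 65.3 CPM in heavy and 83.8, 99.7 and 88.1 CPM in input libraries (log2 -0.67, SE 0.19, adjusted p = 0.00847 by edgeR). Srm was above input in all libraries and Sat1 below it in all. Odc1, the first enzyme, was chosen after its values were seen and had 275, 356 and 415 CPM in heavy and 255.3, 282 and 283 CPM in input, with overlap (adjusted p = 0.138). Azin1, which shields that enzyme, was at -0.59 (adjusted p = 0.029), a call lost without heavy library 2 or 3 or input library 1 or 3 (adjusted p = 0.0553, 0.0953, 0.0812 and 0.0787). Among 9 genes of iron handling the 2 iron regulatory proteins differed: Aco1 rose (log2 0.92, SE 0.15, adjusted p = 8.92e-05) and Ireb2 fell (log2 -1.34, SE 0.23, adjusted p = 0.000136 by edgeR). The ferritin chain Fth1, held back by these proteins when iron is scarce, and the transferrin receptor Tfrc were chosen after their values were seen and were at 0.09 (adjusted p = 0.87) and -0.53 (adjusted p = 0.344). Selenoproteins, which read a stop codon as selenocysteine, had 5 of 17 higher (29.4%, beside 26.4% of all genes) and 1 lower (5.88%, beside 20.2%). The median was 0.39, with 2 higher without heavy library 3 and 3 without input library 1. With library totals alone 0 were higher and 3 lower (median -0.06). The rises included Gpx4, a lipid peroxidase (0.99, 72.6% of windows shared), Selm (1.04), Msrb1 (0.91) and Txnrd2 (0.55), and each of these 4 calls was lost with that scaling (adjusted p = 0.0932, 0.112, 0.139 and 0.621). Selt was the fall (log2 -1.001, SE 0.24, adjusted p = 0.0022 by edgeR).

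Epithelial genes of the carcinoma cell were enriched. Of 38 keratins and junction proteins 22 rose and 2 fell (median 0.92). Krt7 had 4211, 2786 and 2754 CPM in heavy and 786, 759 and 749 CPM in input libraries (log2 2.09, SE 0.18, adjusted p = 2.02e-07 by edgeR). Cldn3, a tight junction claudin, had 356, 328 and 446 CPM in heavy and 94.7, 94.9 and 88.6 CPM in input libraries (log2 2.02, SE 0.15, adjusted p = 6.45e-08 by edgeR). No heavy library of these came near the inputs. Krt19, Krt8 and Cldn4 were at 1.63, 1.83 and 1.45. Mesenchymal and EMT genes were near the shares of all genes (26.4% and 20.2%), with 5 of 22 higher (22.7%) and 4 lower (18.2%; 2 and 8 with library totals alone; median 0.23; 3 higher and 5 lower without heavy library 3 or input library 2). Vim, the mesenchymal filament vimentin, had 4348, 4453 and 4021 CPM in heavy and 2043, 1927 and 2129.8 CPM in input libraries (log2 1.07, SE 0.20, adjusted p = 0.000352 by edgeR). Foxc2 was at 0.93 and the repressor Zeb2 at -1.05.

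Genes of both DNA replication and mitosis were measured. Of 40 S phase genes 24 rose (60%) and 1 fell (2.5%), with a median of 0.74. Of 38 mitotic genes 12 rose (31.6%) and 5 fell (13.2%), beside 26.4% and 20.2% of all genes. The mitotic median was 0.16. With library totals alone 7 mitotic genes rose and 13 fell, and 3 fell without heavy library 3 or input library 1 or 3. Pold2, a subunit of DNA polymerase delta, had 299, 347 and 369 CPM in heavy and 88.6, 87.1 and 88.3 CPM in input libraries (log2 1.94, SE 0.14, adjusted p = 6.45e-08 by edgeR). Plk1, a mitotic kinase, had 230.0, 262 and 239 CPM in heavy and 99.9, 108 and 107 CPM in input libraries (log2 1.22, SE 0.17, adjusted p = 1.44e-05 by edgeR). In both genes heavy lay above input throughout. Rfc2, Lig1 and Mcm7 were at 1.49, 1.28 and 1.26, and Bub3, Cdc20 and Aurka at 1.23, 1.10 and 0.89. Of 37 tested replication-dependent histones, whose mRNAs mostly lack the poly(A) tail used for selection, 2 rose (5.41%) and 4 fell (10.8%). Of all genes 26.4% rose and 20.2% fell. Without heavy library 2, 2 histones fell.

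Signalling and growth-control genes were divided. In the mTOR pathway 12 of 30 rose (40%) and 8 fell (26.7%), beside 26.4% and 20.2% of all genes. The median was 0.29. Rises and falls were 4 and 13 with library totals alone, 7 and 8 without input library 2, and 9 and 5 without input library 3. Rps6ka1, Akt1s1 and Tsc2 were at 1.42, 1.29 and 1.10, while Rictor, of the second mTOR complex, had 39.4, 54.2 and 31.5 CPM in heavy and 115, 105 and 128 CPM in input libraries (log2 -1.48, SE 0.23, adjusted p = 5.64e-05 by edgeR). Of 43 cytokines and growth factors 10 rose (23.3%, beside 26.4% of all genes) and 2 fell (4.65%, beside 20.2%), with a median of -0.02. With library totals alone 3 rose and 11 fell, and with upper quartile scaling 5 rose and 5 fell. The rises were 5 without heavy library 3 and 6 without any 1 of the inputs. Tgfb1 had 107, 118 and 169 CPM in heavy and 43.7, 45.2 and 42.8 CPM in input libraries (log2 1.58, SE 0.20, adjusted p = 7.47e-06 by edgeR), and Cxcl16 and Pdgfb were at 1.24 and 1.06. Of 45 immediate early and short-lived regulators 7 rose (15.6%) and 5 fell (11.1%), fewer than the 26.4% and 20.2% of all genes (median 0.42). With library totals alone 3 rose and 8 fell. The rises were 11 without heavy library 2 and 4 without heavy library 3 or any 1 of the inputs. Junb had 1137, 525 and 1777 CPM in heavy and 381, 297 and 288 CPM in input libraries (log2 1.83, SE 0.41, adjusted p = 0.00147 by edgeR), Ccnl1, a cyclin of splicing kinases, was at -1.81 and Mdm2, the ligase for p53, at -0.51. Myc, chosen after its values were seen, was at 0.33 (adjusted p = 0.136; 0.0488 without heavy library 1). Of 26 mRNAs reported to start without the cap 8 rose (30.8%) and 7 fell (26.9%), beside 26.4% and 20.2% of all genes. Their median was 0.03, as for all genes, beside 0.14 for protein coding genes. With library totals alone 4 rose and 10 fell. Birc2 and Xiap, inhibitors of apoptosis, were at -0.86 and -1.06, and Bcl2l1 and Cdk1, a survival factor and the mitotic kinase, at 0.81 and 0.996.

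Setting the heavy pool against the light pool of the same cells, where mRNAs carry few ribosomes, gave another order. Of the 15072 genes 4065 (27%) were higher and 3865 (25.6%) lower in heavy, 7930 (52.6%) in all; with upper quartile scaling 2934 were higher and 5029 lower, and with library totals alone 2937 and 4865. This comparison and the one with input share the heavy libraries, so values are only set side by side. Heavy and light libraries pair by number, and the values given are from the fit without the pairs. With the replicate number as a block 4558 genes were higher and 4328 lower over all 18 libraries, and 4458 and 4696 over the 6 alone; no gene whose value over light is given here lost or gained its call over the 6. Lists of short messages stood on another side. Of 79 ribosomal protein genes 0 were higher and 69 lower in heavy than in light (median -1.41), where against input 19 rose and 24 fell. S100 proteins and metallothioneins had 0 higher and 12 of 14 lower (median -1.73), against 2 rises and 0 falls over input, which were 4 rises without heavy library 2 and 0 without heavy library 3 or input library 2. Respiratory chain genes had 19 higher and 40 lower (median -0.60), against 55 and 5. Long messages differed the other way: very long cytoskeletal proteins had 24 higher and 0 lower (median 0.85), against 0 and 18, and matrix proteins 22 and 2 (median 1.34), against 2 and 8. Some lists kept their side in both. The synthetases had 19 higher and 0 lower (median 1.61), the proteasome 34 and 1 (median 1.16), glycolysis 18 and 0 (median 1.32), and the snoRNA hosts 0 and 18 (median -2.16). By protein length the median against light was -1.72 under 100 residues and 0.50 at 1600 or more.

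The largest rises of heavy over light were in Pfkl, the liver phosphofructokinase, with 1790.1, 1541 and 1216 CPM in heavy and 239, 254 and 201 CPM in light libraries (log2 2.71, adjusted p = 7.87e-07 by edgeR), Mvp, the major vault protein (2.65), Anxa11, an annexin (2.55), Lgals3bp, a secreted glycoprotein (2.50), and Cad, the first enzyme of pyrimidine synthesis (2.46). The largest falls were in Tmsb4x, the small actin-binding peptide thymosin beta 4, with 139.9, 139 and 215 CPM in heavy and 694, 637 and 1667 CPM in light libraries (log2 -2.60, adjusted p = 3.15e-05 by edgeR), Lst1 (-2.60), Snhg3 (-2.58; 79.9% of windows shared), Myeov2 (-2.54) and Usmg5, a short subunit of the ATP synthase (-2.48). Heavy and light did not overlap in these 10. Over input, Tmsb4x was at -0.95, Myeov2 at -0.20 and Usmg5 at -0.39, and Pfkl, Mvp and Anxa11 at 1.88, 1.79 and 1.002; the call for Tmsb4x over input (adjusted p = 0.0415) was lost without any 1 of heavy libraries 1 and 2 and the inputs, and with no filter on low counts (adjusted p = 0.0684 to 0.125).

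The same comparison in shDap5 cells shared no library with the control one. There 7209 genes (47.8%) were called, 4021 higher (26.7%) and 3188 lower (21.2%) in heavy than in input; with library totals alone these were 2255 and 5273, and with upper quartile scaling 3121 and 4137. Called in both arms with the same direction were 5838 genes, which is 83.1% of the NSi calls and 81.0% of the shDap5 calls, and 0 were called in opposite directions. Of all genes 87.8% had the same sign, and Spearman's rank correlation of the 2 sets of changes was 0.88 across 15072 genes. The proteasome list had 31 rises and 0 falls in shDap5 (median 1.08), mitochondrial ribosomal proteins 63 and 1 (median 1.02), nuclear noncoding RNAs 0 and 7 (median -1.68) and zinc finger genes 37 and 163 (median -0.65).

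The difference between arms, heavy over input in NSi minus the same in shDap5, was called for 0 genes by edgeR (0%); 295 had an unadjusted p under 0.05 and the smallest adjusted p was 0.9996, and DESeq2 called 0 as well. Nothing in the control comparison is therefore shown to be particular to control cells. The smallest p-values, none past the threshold, were those of Ptbp2, with -1.88 in NSi and -2.68 in shDap5, Neil3, a DNA glycosylase, with -1.51 and -2.27, Cst6, a protease inhibitor, with 0.32 and 1.24, Gramd2, with -0.02 and -0.90, and Fads2, a fatty acid desaturase, with 1.17 and 0.09. The counts of 3 lists, chosen after they were seen, are set side by side without a test. Replication-dependent histones had a median of 0.54 in NSi with 2 rises and 4 falls and of 2.65 in shDap5 with 24 rises and 1 fall. Their summed level was 98.4, 119 and 194 CPM in NSi heavy and 101.3, 84.9 and 91.1 CPM in NSi input, and 212, 249 and 300.2 CPM in shDap5 heavy and 165, 108 and 167 CPM in shDap5 input. Cholesterol genes had 13 rises and 2 falls in NSi (median 0.80) and 6 and 6 in shDap5 (median 0.05), and S phase genes 24 and 1 (median 0.74) against 10 and 3 (median 0.30).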

How the data were processed

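Whole-number counts of reads per gene symbol were used as deposited by the authors, for 35976 symbols in 18 libraries; 27 symbols altered to dates are not named. Reads were aligned with Bowtie to mm9, per the submitters' processing notes; the sources used here do not give the version, counter, annotation or use of strand, so overlapping and antisense genes may be mixed. Libraries were grouped by title. Tests were run in R 4.3.3 with edgeR 4.0.16 (quasi-likelihood, TMM, Benjamini-Hochberg adjusted p under 0.05) on all 18 libraries with 1 mean per group and 12 residual degrees of freedom, after its low-count filter (minimum count 10, total 15), and were tested on simulated data. Standard errors are the size of the log2 change over the root of F. A count of 0 allows up to 3 counts, or 0.0744 to 0.11 CPM in heavy and 0.0467 to 0.0482 CPM in input; this floor covers counting error only. Replicates of a group differed by more than counting noise.

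Same-numbered heavy and light libraries deviated together (correlations of 0.485, 0.728 and 0.545 over 6488 genes) and so pair by number; heavy and input did not. Values of heavy against light are from the fit without that pairing. Genes were named by rule: Eif4g2; the 15 largest rises and 15 largest falls among called genes without overlap whose mean reached 5 CPM; in each list, at most 5 members, by p; the 5 most changed each way in heavy against light; and, as none passed between the arms, the 5 smallest p there. Members, 35 gene lists and the rule were chosen with earlier results of these data known. The zinc finger list, the subunit families, the splits of ribosomal protein genes and genes said to be so were chosen after values were seen. Lengths, GC and shared windows of 31 bases came from GENCODE M21 (GRCm38) and classes and start windows from RefSeq, matched by symbol; 14625 of 15072 genes tested had a RefSeq class. Protein lengths had been meant to come from RefSeq. Alternatives were other scalings, no filter, DESeq2 1.42.0, only the libraries compared, a replicate block and leaving out each library.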

Additional observations from a re-analysis of the deposited data

How the results depend on the processing

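Scaling moved the balance of calls most. With library totals alone NSi heavy against input had 1981 rises and 5619 falls, and shDap5 2255 and 5273, against 3980 and 3049, and 4021 and 3188, with TMM. List medians that were above 0 with TMM and below 0 with library totals alone included those of ribosomal proteins (-0.31), endoplasmic reticulum (-0.27), adhesion (-0.29), mitotic (-0.29), EMT (-0.21), selenoprotein (-0.06) and mTOR pathway (-0.16) genes. Leaving out 1 library gave 3320 to 3959 rises and 2452 to 2794 falls in NSi, 3449 to 4176 and 2602 to 3344 in shDap5, 3594 to 4119 and 3154 to 3970 for heavy against light, and 0 to 2 and 0 to 7 for the difference between the arms, where shDap5 input library 2 gave the highest. The replicate block raised the NSi calls to 8057 over all 18 libraries (4373 rises, 3684 falls) and gave 6899 over the 6; the numbers do not pair heavy with input (correlations 0.117, -0.234 and -0.320). Of 3622 values of 259 named genes over 14 settings 3514 kept their direction and side of the threshold, 80 lost the call, 28 gained it and 0 changed direction with a call. The heavy pool was sequenced less deeply than input, which limits genes under 0.11 CPM there.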

Other observations

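Further families, grouped by their symbols after the values were seen, are given as counts of rises and falls in NSi heavy against input. The counts are with TMM scaling only. Members are protein coding genes. Of all 12939 protein coding genes tested 30.1% rose and 17.9% fell, with a median of 0.14. The median of all genes was 0.03. Families that shape chromatin had medians below both. Of 20 lysine methyltransferases 10 fell and 0 rose (median log2 -0.52). Of 10 Chd remodellers 6 fell and 0 rose (median -0.93), and of 17 Kdm demethylases 7 fell and 1 rose (median -0.33). Centrosome genes named Cep had 16 of 35 lower and 3 higher (median -0.41), and kinesins, the motors of microtubules, had 9 of 33 lower and 5 higher (median -0.26). Of 48 Usp deubiquitinases 16 fell and 9 rose (median -0.27), and of 44 Trim ligases 14 fell and 7 rose (median -0.28).

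Other families had medians above those of all genes and of protein coding genes. Of 18 subunits of the vacuolar ATPase, which acidifies lysosomes, 9 rose and 2 fell (median 0.52), of 8 COP9 signalosome genes 5 rose and 0 fell (median 0.72), and of 13 RNA polymerase II subunits 7 rose and 0 fell (median 0.73). Of 59 Rab GTPases, which direct vesicles, 25 rose and 3 fell (median 0.37), of 33 ubiquitin-conjugating enzymes 15 rose and 4 fell (median 0.48), and of 50 Ddx and Dhx helicases 19 rose and 8 fell (median 0.29). Large families stayed near the medians of all genes and of protein coding genes. Of 221 solute carriers 56 rose and 42 fell (median 0.13), and of 181 Tmem genes 62 rose and 32 fell (median 0.15). Of 70 Rnf ligases 16 rose and 13 fell (median -0.04).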
